A study of Homo sapiens with 14 samples.

Results

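Heat shock chaperones of the cytosol and mitochondria, with their cochaperones and the heat shock transcription factors, were followed across all 14 arrays of the study. The members were taken from a list of 41 gene symbols, and each was read from the brightest transcript cluster (the probe set that covers 1 gene) carrying its symbol. Of the 41, 35 had a cluster of their own. HSPA1A and HSPA1B shared clusters annotated with both symbols, and ST13 shared a cluster with ST13P4 and ST13P5, so 37 clusters stood for 38 members. No cluster of AHSA1, HSPB11 or HSF2 was matched here. Of the 37, 35 passed the filter on dim genes, out of 11027 genes tested in all (18379 genes had a cluster), and HSPA2 and HSPB8 fell below it.

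HSP70 chaperones bind unfolded stretches of protein in cycles of ATP hydrolysis, which J-domain proteins (the DNAJ family) start and nucleotide exchange factors (HSPH1, the BAG proteins) end. HSP90 acts later, on nearly folded clients such as kinases and steroid receptors, with cochaperones that deliver clients or set its ATPase rate. HSPD1 and HSPE1 form the folding chamber of the mitochondrial matrix, small heat shock proteins hold unfolded protein in solution, and heat shock factor 1 (HSF1) drives the inducible members through heat shock elements in their promoters. Cancer cells, with a high load of protein synthesis and folding, commonly keep many of these genes at high levels.

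The cells were MiaPaCa2, an established human pancreatic cancer line, kept in DMEM with serum and transfected with a scrambled control siRNA (siCtrl) or with siRNA against Nupr1, RelA/p65 or RelB. Earle's Balanced Salt Solution (EBSS), which per the labels' protocol lacks glucose, amino acids and growth factors, was the starvation medium. The Nupr1 set consists of 8 arrays, 4 a siRNA, with siCtrl or siNupr1 cells taken unstarved (0 h) or starved for 3, 6 or 9 h. The NF-kB set consists of 6 arrays, with siCtrl, siRelA or siRelB cells kept 9 h in EBSS or in mock, a medium that the labels name without saying what is in it. Each combination has a single array, and all come from 1 cell line, so p-values measure only the spread between these arrays. For Nupr1 and RelB the labels list 2 siRNA sequences and do not say which was used on the arrays. The siNupr1 array at 9 h carries another siRNA name in its title (sip9) than in its source and description (Nupr1, P8). For the 0 h arrays the title says DMEM and the source label EBSS.

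Promoter sequences are shown first for 8 members, because HSF1 acts through heat shock elements and these can be read in the letters. Each is the stretch of 120 bases before the annotated start in RefSeq on GRCh38.p14, 5′ to 3′ on the gene's strand. Capitals mark every match to an element core, 2 units of 3 bases facing each other, written GAANNTTC or TTCNNGAA, with overlapping matches joined.
HSPA1A (stress-inducible HSP70, chr6:31815423-31815542, plus strand): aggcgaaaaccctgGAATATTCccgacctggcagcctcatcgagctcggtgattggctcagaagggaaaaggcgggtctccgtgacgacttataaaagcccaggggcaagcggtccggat
HSPA1B (its near-identical neighbour, chr6:31827618-31827737, plus strand): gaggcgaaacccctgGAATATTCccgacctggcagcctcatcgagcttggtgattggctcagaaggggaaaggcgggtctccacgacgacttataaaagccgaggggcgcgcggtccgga
HSPA8 (constitutive HSP70, chr11:123062137-123062256, minus strand): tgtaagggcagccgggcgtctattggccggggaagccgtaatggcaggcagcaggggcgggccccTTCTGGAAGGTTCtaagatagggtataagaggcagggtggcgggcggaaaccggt
HSP90AA1 (inducible HSP90, chr14:102087045-102087164, minus strand, the second of 2 starts): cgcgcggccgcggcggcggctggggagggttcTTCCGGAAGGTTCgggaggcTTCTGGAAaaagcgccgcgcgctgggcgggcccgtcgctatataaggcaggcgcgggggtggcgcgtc
HSP90AB1 (constitutive HSP90, chr6:44247823-44247942, plus strand, the third of 3 starts): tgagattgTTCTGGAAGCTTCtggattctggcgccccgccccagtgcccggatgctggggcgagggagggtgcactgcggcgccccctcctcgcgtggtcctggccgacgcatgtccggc
CHORDC1 (HSP90 cochaperone, chr11:90223050-90223169, minus strand): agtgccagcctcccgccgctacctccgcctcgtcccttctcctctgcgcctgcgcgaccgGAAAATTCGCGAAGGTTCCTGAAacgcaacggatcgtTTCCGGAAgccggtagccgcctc
DNAJA4 (J-domain protein, chr15:78264442-78264561, plus strand, the second of 3 starts): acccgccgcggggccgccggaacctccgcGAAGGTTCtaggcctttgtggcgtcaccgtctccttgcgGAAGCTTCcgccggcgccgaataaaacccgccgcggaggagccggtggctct
DNAJB1 (J-domain protein, chr19:14518398-14518517, minus strand, the second of 3 starts): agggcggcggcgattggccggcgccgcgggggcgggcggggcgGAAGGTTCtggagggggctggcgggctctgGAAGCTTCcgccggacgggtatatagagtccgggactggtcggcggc

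The CHORDC1 stretch held 5 cores, HSP90AA1 3, HSPA8, HSP90AB1, DNAJA4 and DNAJB1 2 each, and HSPA1A and HSPA1B 1 each. The HSPA1A and HSPA1B promoters were alike at 277 of 299 aligned bases (92.6%, over 250 bases before to 50 after the start). Over windows of that length RefSeq listed a promoter for 35 of the 41 members, and none was listed here for HSPA14, HSPB11, FKBP4, HSF1, STUB1 and ST13. A core on either strand was found for 18 of the 35 (51.4%), against 16.2% of 27305 gene symbols with a promoter in the table. Counted per window, 19 of 50 member windows (38%) and 13.5% of 35116 windows in all held one. Where a gene had several starts, the stretch printed above is from a start with cores. The other windows of HSP90AA1, HSP90AB1 and DNAJA4 held none. For DNAJB1 the first window held none and the third 1. A run of 3 units was found for 7 members (HSPA8, HSPD1, HSP90AA1, HSP90AB1, DNAJA1, DNAJB6 and CHORDC1), which is 20% of the 35, against 0.608% of all symbols. A match describes the letters only. How the members with and without these letters moved is given with the starvation results.

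Checks on the arrays as a whole were few. Each targeted gene was lower with its own siRNA, NUPR1 at -0.87 ± 0.10, RELA at -2.49 ± 0.13 and RELB at -1.32 ± 0.17 (log2 difference ± standard error of the joint limma fit, as for every difference here). The median level of an array lay between 5.67 and 5.84. Of 6 epithelial markers KRT8, KRT18, KRT7 and KRT19 stood above the filter level of 5.80 while EPCAM and CDH1 did not. None of 4 measured endothelial markers did, of 4 leukocyte markers CD14 alone (5.90), of 4 acinar markers CELA3A alone, and of 6 fibroblast markers COL1A1, COL1A2 and COL3A1. The 4 keratins were higher in EBSS than in mock (median 0.34), and their part in the chaperone results was not tested. All 5 starvation control genes, among them DDIT3 and TRIB3, were higher in EBSS in both sets. Their median difference was 1.23 against mock in the NF-kB set and 2.15 at 9 h against 0 h in the Nupr1 set. For all 5 the rise against mock was the smaller one by limma's test of the difference. Baseline and set differ together between these comparisons.

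Chaperone members were lower more often than higher in each comparison of starved with unstarved or mock cells, and most were lower against mock. After 9 h, 25 of 35 were lower in EBSS than in mock and 1, HSF1, was higher, with adjusted p below 0.05 (Benjamini-Hochberg, all tested genes). The corresponding shares of all tested genes were 29.3% lower and 22.6% higher, and the 25 lower members are 71.4% of those tested. The median member difference was -0.50, against 0.05 over all tested genes, and 8 members were at least 2-fold lower. In the time course 15 members were lower and 0 higher at 3 h. At 6 h 18 were lower and 1 higher, and at 9 h 16 were lower and 3 higher. All tested genes were lower and higher in 9.08% and 3.27% of cases at 3 h, 15.8% and 7.65% at 6 h, and 15.1% and 9.19% at 9 h. The member medians were -0.26, -0.30 and -0.24, against -0.03, -0.01 and -0.04.

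**Figure D1:**
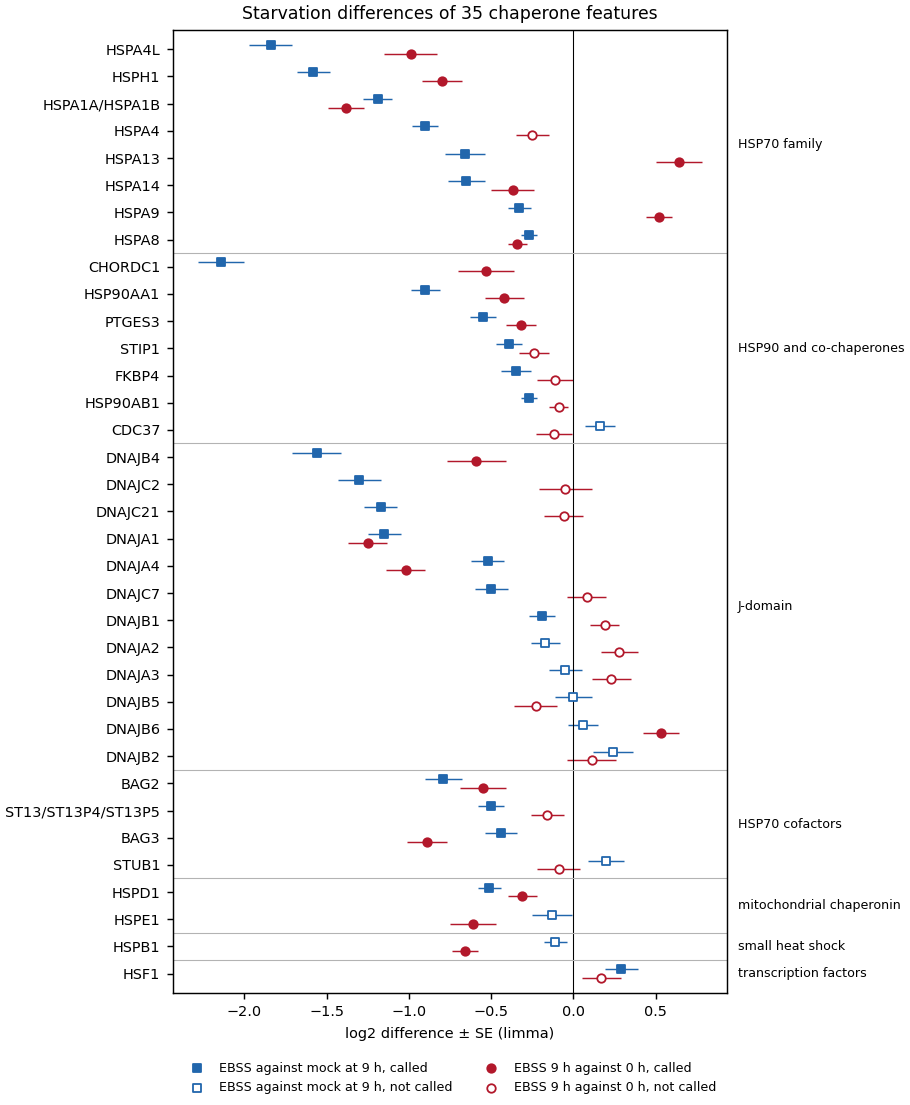
Log2 differences with standard errors for the 35 tested chaperone clusters, in EBSS against mock at 9 h (blue squares, 3 pairs of arrays) and at 9 h against 0 h in EBSS (red circles, 2 pairs), grouped by role. Filled symbols passed the adjusted p threshold of 0.05; the blue squares of 25 clusters lie below 0 and filled, while HSPA13 and HSPA9 have a filled square below 0 and a filled circle above 0.

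Because each comparison rests on 2 or 3 pairs of single arrays, leaving out 1 array changed some counts. In EBSS against mock 24 to 27 members were called over the 14 fits that each left out 1 array, and 23 of the 26 calls held in every one. At 3 h the 15 calls became 4 without the siCtrl array at 0 h, 7 without the siCtrl array at 3 h and 5 without the siNupr1 array at 3 h, and those for HSPA1A/HSPA1B, HSPA8 and DNAJA1 held throughout. At 6 h the 19 calls became 11 and 12 without the siCtrl arrays at 0 h and 6 h, and at 9 h the 19 became 11 without the siCtrl array at 0 h. Another scaling, quantile normalization of the deposited values, moved the median of all genes in EBSS against mock from 0.05 to 0.11 and the share of called genes that were higher from 43.5% to 56.3% (26.5% to 44.7% at 3 h, 32.7% to 45.7% at 6 h, 37.8% to 47.3% at 9 h). Under it 24 members were lower and 4 higher in EBSS against mock, with CDC37, DNAJB2 and STUB1 added to HSF1.

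Levels of single members are given below on the log2 scale of the deposited values, with the Nupr1 set in the order 0, 3, 6 and 9 h and the NF-kB set in the order siCtrl, siRelA and siRelB. They are comparable between arrays for 1 gene and not between genes.

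All 8 tested HSP70 family members were lower in EBSS than in mock, with a median of -0.78. HSPA1A/HSPA1B, the stress-inducible HSP70, read 9.46, 8.02, 8.26 and 8.02 with siCtrl and 9.50, 8.07, 8.35 and 8.18 with siNupr1. In the NF-kB set it read 9.86, 9.70 and 9.88 in mock and 8.51, 8.66 and 8.70 in EBSS. Both unstarved arrays of the Nupr1 set stood more than 1 log2 unit above all 6 EBSS arrays there, with no order from 3 to 9 h, and mock and EBSS did not overlap. The difference was -1.19 ± 0.09 (2.28-fold lower, adjusted p = 6.87e-09) against mock and -1.43 ± 0.11, -1.17 ± 0.11 and -1.38 ± 0.11 at 3, 6 and 9 h. Over the 5 clusters annotated with both symbols, 4 of them distinct in profile, it ranged from -1.19 to -1.15 against mock and from -1.38 to -1.35 at 9 h.

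HSPA8, the constitutive HSP70 of the cytosol, read 13.25, 12.93, 12.98 and 12.95 with siCtrl and 13.28, 12.96, 12.95 and 12.90 with siNupr1. Its NF-kB set levels were 13.29, 13.20 and 13.25 in mock and 13.03, 12.86 and 13.02 in EBSS. Every starved array was below every unstarved or mock array of its set, although the whole span over 14 arrays was 0.42. Its difference was -0.27 ± 0.05 against mock (adjusted p = 5.1e-05) and -0.32 ± 0.06, -0.30 ± 0.06 and -0.34 ± 0.06 at the 3 times.

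HSPH1, the HSP110 exchange factor of HSP70, read 10.36, 9.63, 9.53 and 9.32 with siCtrl and 9.82, 9.26, 9.33 and 9.26 with siNupr1. The NF-kB arrays read 10.68, 10.45 and 10.20 in mock and 9.17, 8.68 and 8.74 in EBSS. It fell in 3 of 3 pairs and mock and EBSS stood at least 1 log2 unit apart. The difference was -1.58 ± 0.10 against mock (adjusted p = 9.75e-10) and -0.80 ± 0.12 at 9 h (adjusted p = 7.46e-05).

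HSPA4L, a related exchange factor, had the second-widest range of the members, 3.45, reading 8.0, 7.16, 6.60 and 6.58 with siCtrl and 7.45, 6.97, 6.82 and 6.88 with siNupr1. The NF-kB set gave 8.01, 6.45 and 7.11 in mock and 6.14, 4.57 and 5.35 in EBSS. The siRelA and siRelB arrays in EBSS lay below the filter level of 5.80 while the Nupr1 set stayed above it. Its difference was -1.84 ± 0.13 against mock (adjusted p = 2.83e-09) and -0.99 ± 0.16 at 9 h (adjusted p = 0.000161). HSPA4, of the same subfamily, read 10.43, 9.95, 9.98 and 10.08 with siCtrl and 10.33, 9.89, 10.02 and 10.19 with siNupr1. It read 10.49, 10.72 and 10.17 in mock and 9.69, 9.64 and 9.36 in EBSS in the NF-kB set. HSPA4 was lower against mock with a difference of -0.90 ± 0.08 (adjusted p = 5.56e-08), and lower at 3 h and 6 h (-0.46 ± 0.10 and -0.38 ± 0.10) but not past the threshold at 9 h (-0.25 ± 0.10, adjusted p = 0.0905).

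HSPA14, a ribosome-associated HSP70, read 7.62, 7.14, 7.06 and 7.26 with siCtrl and 7.55, 6.97, 7.26 and 7.18 with siNupr1. On the NF-kB arrays it stood at 7.64, 7.15 and 6.99 in mock and 7.08, 6.30 and 6.45 in EBSS, and the media overlapped because siCtrl in EBSS stood above siRelB in mock. Within each siRNA it was lower in EBSS, by -0.65 ± 0.11 overall (adjusted p = 4.55e-05). At 9 h it was -0.37 ± 0.13 (adjusted p = 0.0465), a call that failed in 10 of the 14 fits with 1 array left out (adjusted p up to 0.201).

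HSPA9 (mortalin, the HSP70 of the mitochondrial matrix) and HSPA13 (an HSP70 of microsomes) went opposite ways in the 2 sets. HSPA9 read 11.64, 11.70, 11.90 and 12.26 with siCtrl and 11.62, 11.62, 11.75 and 12.05 with siNupr1. In the NF-kB samples it measured 11.68, 11.83 and 11.68 in mock and 11.40, 11.33 and 11.47 in EBSS. It was highest at 9 h in both siRNA arms of the time course, and lower in EBSS than in mock in 3 of 3 pairs. The differences were 0.52 ± 0.08 at 9 h against 0 h (adjusted p = 0.000113) and -0.33 ± 0.07 against mock (adjusted p = 0.000411). HSPA13 read 8.82, 8.52, 8.49 and 9.11 with siCtrl and 8.14, 8.10, 8.26 and 9.14 with siNupr1, with the highest level at 9 h. The other set gave 8.63, 7.74 and 7.78 in mock and 8.14, 7.08 and 6.95 in EBSS. The differences were 0.64 ± 0.14 at 9 h (adjusted p = 0.00267) and -0.66 ± 0.12 against mock (adjusted p = 0.000114). Without the siNupr1 array at 0 h or at 9 h the 9 h value of HSPA13 was 0.41 in both cases (adjusted p = 0.0938 and 0.0835). HSPA2, a testis-enriched HSP70 under the filter level on average (5.72), read 5.99, 6.71 and 6.16 in mock and 5.32, 5.56 and 5.51 in EBSS and lay between 5.23 and 6.24 in the Nupr1 set. With no filter it was -0.82 ± 0.14 against mock and -0.69 ± 0.17 at 9 h (adjusted p = 0.000133 and 0.00893).

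**Figure D2:**
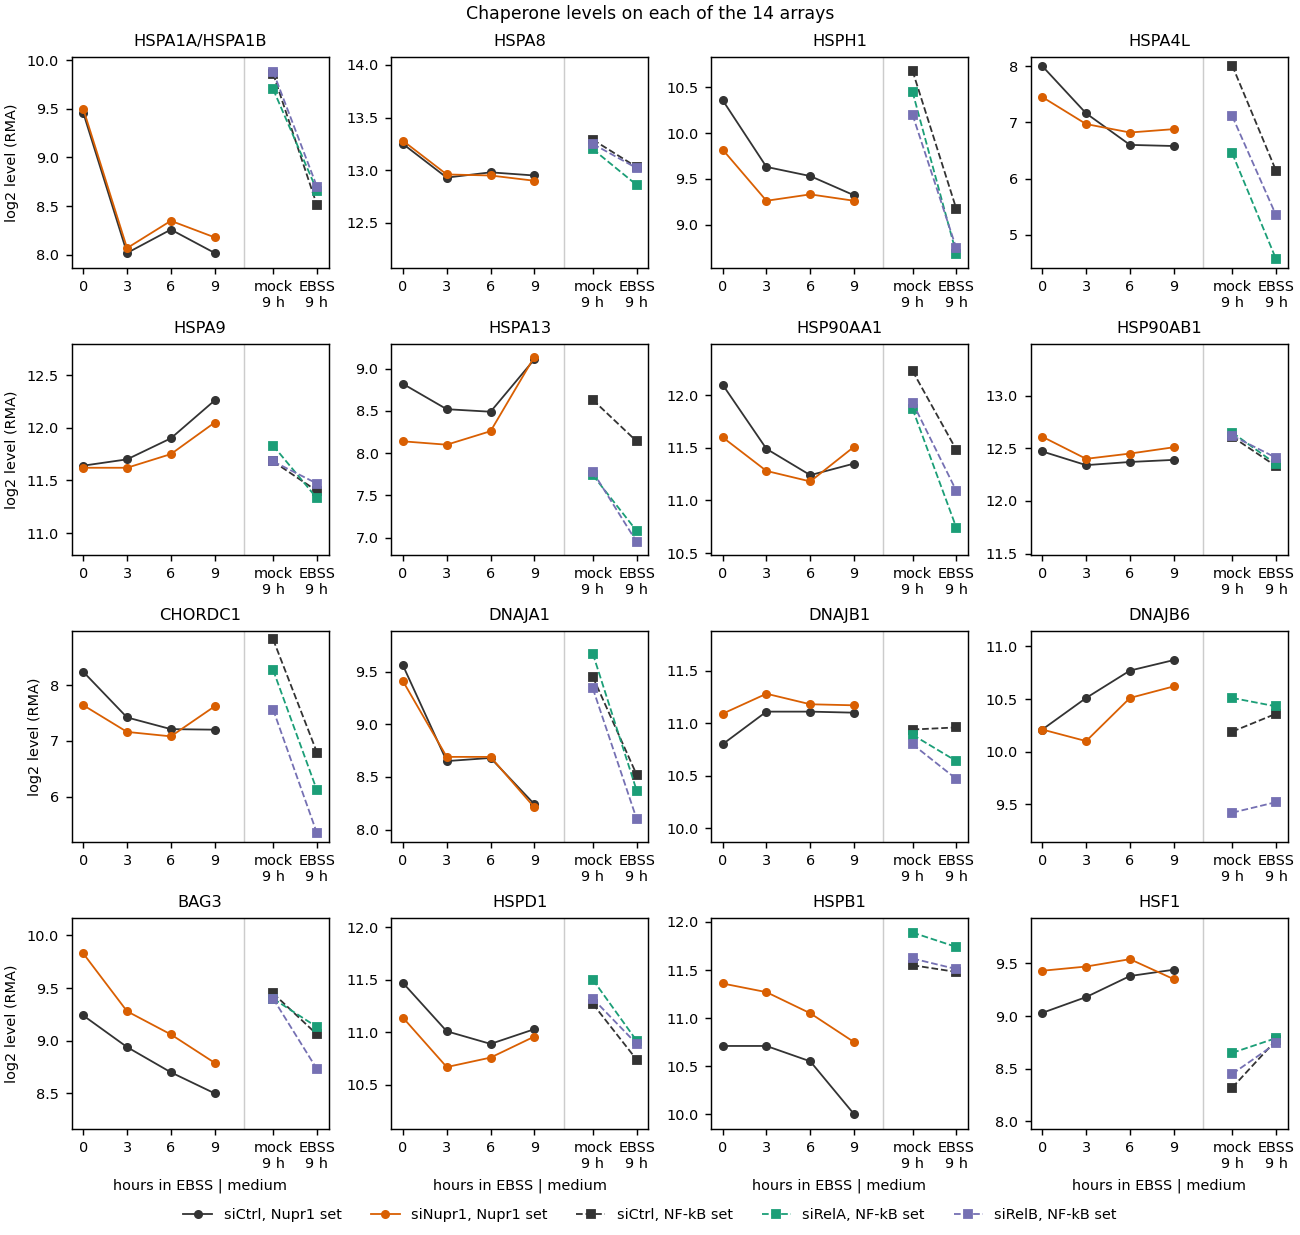
Log2 level of 16 chaperone clusters on each of the 14 arrays. In each panel the left side gives hours in EBSS in the Nupr1 set (circles, siCtrl black and siNupr1 orange) and the right side mock and EBSS at 9 h in the NF-kB set (squares, dashed lines joining arrays of 1 siRNA); every point is 1 array, panels share no axis, and none spans under 2 log2 units. HSPA1A/HSPA1B falls between 0 h and 3 h and stays low, and BAG3 falls through 9 h. HSPB1 is near its 0 h level at 3 h and lowest at 9 h. HSPA9 rises in the time course while it is lower in EBSS than in mock.

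Of the HSP90 proteins and their cochaperones, 6 of 7 tested were lower than in mock (median -0.39) and 3 of 7 at 9 h against 0 h. CHORDC1, a zinc-binding cochaperone of HSP90 that is heat-inducible, had the largest difference of any member. It read 8.24, 7.42, 7.21 and 7.20 with siCtrl and 7.64, 7.16, 7.08 and 7.62 with siNupr1. In the NF-kB set it read 8.82, 8.27 and 7.56 in mock and 6.79, 6.11 and 5.34 in EBSS, with siRelB in EBSS below the filter level. It was -2.14 ± 0.14 against mock (4.39-fold lower, adjusted p = 9.75e-10) and -0.53 ± 0.17 at 9 h. The 9 h call failed without the siCtrl array at 0 h (-0.23, adjusted p = 0.47) and without the one at 9 h (-0.16, adjusted p = 0.526).

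HSP90AA1, the inducible cytosolic HSP90, read 12.10, 11.49, 11.24 and 11.35 with siCtrl and 11.60, 11.28, 11.18 and 11.51 with siNupr1. Its NF-kB set levels were 12.23, 11.87 and 11.93 in mock and 11.48, 10.74 and 11.09 in EBSS. Mock and EBSS did not overlap, and the siRelA array in EBSS was the lowest of all 14. It was lower with a difference of -0.90 ± 0.09 against mock (adjusted p = 1.94e-07) and -0.42 ± 0.12 at 9 h (adjusted p = 0.011), where the call failed without the siCtrl array at 0 h (-0.19, adjusted p = 0.352) or at 9 h (-0.21, adjusted p = 0.29). HSP90AB1, the constitutive HSP90, read 12.47, 12.34, 12.37 and 12.39 with siCtrl and 12.61, 12.40, 12.45 and 12.51 with siNupr1. The NF-kB arrays read 12.61, 12.65 and 12.62 in mock and 12.33, 12.35 and 12.41 in EBSS. Its range over all arrays was 0.33, the narrowest of the members, yet mock and EBSS did not overlap. The HSP90AB1 difference was -0.27 ± 0.05 against mock (adjusted p = 0.000211), and -0.09 ± 0.06 at 9 h did not pass (adjusted p = 0.359).

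PTGES3 (p23), which stabilises the closed HSP90 dimer, read 10.49, 10.15, 9.89 and 10.14 with siCtrl and 10.68, 10.30, 10.16 and 10.41 with siNupr1. It read 10.88, 11.15 and 10.89 in mock and 10.46, 10.53 and 10.26 in EBSS in the NF-kB set. It was lower against mock (-0.55 ± 0.08, adjusted p = 6.05e-06) and at 3, 6 and 9 h (-0.37 ± 0.09, -0.56 ± 0.09 and -0.32 ± 0.09), with no overlap between mock and EBSS. The 9 h call of PTGES3 failed without the siCtrl array at 0 h (-0.30, adjusted p = 0.118) or at 9 h (-0.28, adjusted p = 0.087) and without the siNupr1 array at 0 h (-0.34, adjusted p = 0.0615). FKBP4 (FKBP52), a peptidyl-prolyl isomerase in HSP90 complexes with steroid receptors, read 10.64, 10.38, 10.78 and 10.68 with siCtrl and 11.04, 10.97, 11.04 and 10.77 with siNupr1. The NF-kB set gave 10.78, 11.26 and 10.93 in mock and 10.52, 10.69 and 10.72 in EBSS. FKBP4 was lower against mock (-0.35 ± 0.09, adjusted p = 0.00364), but not without the siRelA pair (-0.23 with either of its arrays left out, adjusted p = 0.0726 and 0.0743), and it did not pass at any time in the other set.

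STIP1 (HOP), which links HSP70 to HSP90, ranged from 10.52 to 11.38 over the arrays and was lower in 3 of 3 pairs against mock, by -0.39 ± 0.08 (adjusted p = 0.000285). At 9 h its difference was -0.24 ± 0.09 (adjusted p = 0.0699). CDC37, which brings kinases to HSP90, read 9.97, 10.00, 10.02 and 10.05 with siCtrl and 10.55, 10.27, 10.26 and 10.23 with siNupr1. On the NF-kB arrays it stood at 10.04, 10.27 and 10.17 in mock and 10.26, 10.45 and 10.26 in EBSS. It did not pass in either starvation comparison, at 0.16 ± 0.09 against mock and -0.12 ± 0.11 at 9 h.

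J-domain proteins, which stimulate HSP70 to hydrolyse ATP, were divided. Of 12 tested, 7 were lower than in mock and 3 were lower and 1 higher at 9 h against 0 h. DNAJA1, DNAJA4 and DNAJB4 were lower in both comparisons, and DNAJB6 was higher at 9 h against 0 h.

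DNAJA1, a main J-domain partner of cytosolic HSP70, read 9.56, 8.65, 8.68 and 8.24 with siCtrl and 9.41, 8.69, 8.69 and 8.21 with siNupr1. In the NF-kB samples it measured 9.45, 9.67 and 9.34 in mock and 8.52, 8.37 and 8.10 in EBSS. The 2 siRNA arms of the time course ran close together, with both 9 h arrays lowest. DNAJA1 was lower with a difference of -1.15 ± 0.10 against mock (adjusted p = 1.52e-08) and -1.25 ± 0.12 at 9 h (adjusted p = 3.28e-07). DNAJA4, a relative that heat shock induces, read 8.15, 7.40, 7.35 and 7.07 with siCtrl and 8.06, 7.64, 7.40 and 7.10 with siNupr1. It read 7.64, 7.89 and 8.07 in mock and 7.19, 7.37 and 7.49 in EBSS in the NF-kB set, with the siCtrl mock array only a little above the siRelB EBSS array. The differences were -0.52 ± 0.10 against mock (adjusted p = 0.00025) and -1.02 ± 0.12 at 9 h (adjusted p = 5.28e-06).

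DNAJB4, a heat-inducible partner of HSP70, read 7.37, 7.43, 6.17 and 6.47 with siCtrl and 7.07, 6.96, 6.57 and 6.79 with siNupr1. The other set gave 7.04, 6.15 and 6.90 in mock and 5.28, 4.90 and 5.23 in EBSS, so that every EBSS array there was below the filter level. It was lower with a difference of -1.56 ± 0.15 against mock (adjusted p = 6.28e-08). At 9 h it was -0.59 ± 0.18 (adjusted p = 0.0226), which failed without the siCtrl array at 0 h (-0.40, adjusted p = 0.252) or 9 h (-0.37, adjusted p = 0.277). DNAJC2 (zuotin, a ribosome-associated J-domain protein that works with HSPA14) read 8.08, 7.53, 7.30 and 7.79 with siCtrl and 7.41, 7.29, 7.36 and 7.61 with siNupr1. In the NF-kB set it read 7.69, 6.93 and 6.66 in mock and 6.07, 5.88 and 5.44 in EBSS, without overlap of the media. The DNAJC2 differences were -1.30 ± 0.13 against mock (adjusted p = 1.03e-07) and -0.05 ± 0.16 at 9 h (adjusted p = 0.884).

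DNAJC21, which acts in ribosome maturation, read 8.81, 8.41, 8.15 and 8.61 with siCtrl and 8.39, 8.04, 8.09 and 8.47 with siNupr1. It read 8.25, 8.21 and 8.12 in mock and 6.98, 7.12 and 6.96 in EBSS in the NF-kB set, over 1 log2 unit lower in EBSS for each siRNA. It was -1.17 ± 0.10 against mock (adjusted p = 2.06e-08), -0.48 ± 0.12 at 6 h (adjusted p = 0.00856) and -0.06 ± 0.12 at 9 h (adjusted p = 0.79). DNAJC7, a J-domain protein with tetratricopeptide repeats, read 9.52, 9.19, 9.24 and 9.45 with siCtrl and 9.32, 9.37, 9.46 and 9.56 with siNupr1. Its NF-kB set levels were 9.43, 9.34 and 9.07 in mock and 9.04, 8.62 and 8.69 in EBSS. DNAJC7 was lower against mock (-0.50 ± 0.10, adjusted p = 0.000443) and did not pass at 9 h (0.08 ± 0.12).

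DNAJB6, which keeps aggregation-prone proteins soluble, read 10.21, 10.51, 10.77 and 10.87 with siCtrl and 10.21, 10.10, 10.51 and 10.62 with siNupr1. The NF-kB arrays read 10.19, 10.51 and 9.42 in mock and 10.36, 10.43 and 9.52 in EBSS, and the siRelB arrays were the lowest in both media. It was higher at 6 h (0.43 ± 0.11) and 9 h (0.53 ± 0.11, adjusted p = 0.000916), and 0.06 ± 0.09 against mock did not pass, although it was 0.36 and passed with the trend on genomic span removed (adjusted p = 0.00124). DNAJA2 read 9.75, 9.51, 9.74 and 10.00 with siCtrl and 9.85, 9.65, 10.01 and 10.16 with siNupr1. It read 9.39, 10.03 and 9.47 in mock and 9.22, 9.63 and 9.54 in EBSS in the NF-kB set. DNAJA2, a close relative of DNAJA1, dipped at 3 h and was highest at 9 h in both arms, but neither 0.28 ± 0.11 at 9 h (adjusted p = 0.082) nor -0.17 ± 0.09 against mock passed. With the trend on genomic span removed the 9 h value was 0.35 and passed (adjusted p = 0.0236).

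DNAJB1 (HSP40), the classical heat-inducible partner of HSP70, read 10.80, 11.11, 11.11 and 11.10 with siCtrl and 11.09, 11.28, 11.18 and 11.17 with siNupr1. The NF-kB set gave 10.94, 10.89 and 10.80 in mock and 10.96, 10.64 and 10.47 in EBSS, and the media overlapped. DNAJB1 was -0.19 ± 0.08 against mock (adjusted p = 0.0493), a call that failed in 8 of the 14 fits with 1 array left out. Without either siRelB array it was -0.11 (adjusted p = 0.329 and 0.332) and without either siRelA array -0.16, and its sign turned (0.02) when a trend on genomic span was removed. Its 3 differences in the time course, 0.25 ± 0.09, 0.20 ± 0.09 and 0.19 ± 0.09, were positive and none passed. Those at 3 h (0.34, adjusted p = 0.0215) and 6 h (0.28, adjusted p = 0.0281) passed in limma with that trend removed. The span used for DNAJB1, 45.6 kb, is 1 length for the gene, which has 3 listed starts. DNAJA3 (of the mitochondrial matrix; 8.43 to 8.86 over the arrays), DNAJB2 (6.81 to 7.39) and DNAJB5 (5.95 to 6.53) passed in no comparison.

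Among 4 tested cofactors of HSP70, 3 were lower than in mock and 2 at 9 h against 0 h. BAG3, a heat-inducible exchange factor that directs HSP70 clients to autophagy, read 9.24, 8.94, 8.70 and 8.50 with siCtrl and 9.83, 9.28, 9.06 and 8.79 with siNupr1. On the NF-kB arrays it stood at 9.45, 9.40 and 9.40 in mock and 9.06, 9.13 and 8.73 in EBSS. Each step of the time course was lower than the one before in both arms. BAG3 was -0.44 ± 0.10 against mock (adjusted p = 0.000982) and -0.89 ± 0.12 at 9 h (adjusted p = 2.22e-05). BAG2, an exchange factor that restrains the ubiquitin ligase STUB1, read 8.80, 8.17, 7.63 and 8.04 with siCtrl and 8.63, 8.02, 7.86 and 8.29 with siNupr1. In the NF-kB samples it measured 8.89, 8.28 and 8.59 in mock and 8.04, 7.29 and 8.06 in EBSS. It was lowest at 6 h in both arms, -0.97 ± 0.14 from 0 h, and -0.79 ± 0.11 against mock (adjusted p = 9.49e-06). At 9 h it was -0.55 ± 0.14, lost without the siCtrl array at 0 h or at 9 h (-0.41 in both cases, adjusted p = 0.117 and 0.0974).

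The cluster shared by ST13 (HIP, which stabilises HSP70 on its client), ST13P4 and ST13P5 read 10.45, 10.17, 10.23 and 10.22 with siCtrl and 10.63, 10.40, 10.40 and 10.55 with siNupr1. It read 9.95, 10.38 and 10.08 in mock and 9.31, 9.89 and 9.71 in EBSS in the NF-kB set. The signal of the 3 sequences cannot be told apart. It was -0.50 ± 0.08 against mock (adjusted p = 4.08e-05) and -0.16 ± 0.10 at 9 h, which did not pass. STUB1 (CHIP), a ubiquitin ligase for chaperone clients, read 8.56, 8.53, 8.57 and 8.73 with siCtrl and 9.02, 8.88, 8.92 and 8.68 with siNupr1. The other set gave 8.64, 8.78 and 9.06 in mock and 8.91, 9.11 and 9.07 in EBSS. STUB1 passed in neither starvation comparison (0.20 ± 0.11 and -0.09 ± 0.13).

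Both subunits of the mitochondrial chaperonin were lower at 3, 6 and 9 h on all arrays, but not with some single arrays left out. HSPD1 (HSP60) read 11.47, 11.01, 10.89 and 11.03 with siCtrl and 11.14, 10.67, 10.76 and 10.96 with siNupr1. In the NF-kB set it read 11.27, 11.50 and 11.32 in mock and 10.74, 10.92 and 10.89 in EBSS, with no overlap. It was -0.51 ± 0.07 against mock (adjusted p = 8.76e-06) and -0.46 ± 0.09, -0.48 ± 0.09 and -0.31 ± 0.09 at the 3 times. At 3 h it failed without the siCtrl array at 0 h (-0.39, adjusted p = 0.0568) or the siNupr1 array at 3 h (-0.38, adjusted p = 0.0936), and at 9 h without the siCtrl array at 0 h (-0.24, adjusted p = 0.19) or 9 h (-0.21, adjusted p = 0.178). HSPE1 (HSP10), its lid, read 8.56, 7.72, 7.89 and 7.82 with siCtrl and 8.39, 8.15, 8.13 and 7.90 with siNupr1. It read 8.61, 8.21 and 8.41 in mock and 8.29, 8.03 and 8.52 in EBSS in the NF-kB set, where the media overlapped. HSPE1 was -0.53 ± 0.14 at 3 h, which failed without the siCtrl array at 0 h (-0.32, adjusted p = 0.317) or 3 h (-0.34, adjusted p = 0.342). It was -0.46 ± 0.14 at 6 h, which failed without the siCtrl array at 0 h (-0.25, adjusted p = 0.371) or 6 h (-0.40, adjusted p = 0.237) and without the siNupr1 array at 6 h (-0.53, adjusted p = 0.07). HSPE1 was -0.61 ± 0.14 at 9 h (adjusted p = 0.00357; -0.40 and adjusted p = 0.115 without the siCtrl array at 0 h) and -0.13 ± 0.12 against mock, which did not pass (adjusted p = 0.357; -0.30 and adjusted p = 0.041 with the trend on genomic span removed).

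HSPB1 (HSP27), the small heat shock protein that passed the filter, read 10.71, 10.71, 10.55 and 10.00 with siCtrl and 11.36, 11.27, 11.05 and 10.75 with siNupr1. Its NF-kB set levels were 11.55, 11.89 and 11.62 in mock and 11.48, 11.74 and 11.51 in EBSS. All 8 arrays of the Nupr1 set lay below all 6 of the NF-kB set. HSPB1 was lower at 9 h with a difference of -0.66 ± 0.08 (adjusted p = 1.06e-05), after -0.04 ± 0.08 at 3 h and -0.23 ± 0.08 at 6 h, and -0.11 ± 0.07 against mock did not pass (adjusted p = 0.167), although it was -0.32 and passed with the trend on genomic span removed (adjusted p = 0.00045). HSPB8, the partner of BAG3, lay between 3.57 and 4.32, under the filter level on every array.

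HSF1, the factor that induces these genes in heat shock, read 9.03, 9.18, 9.38 and 9.44 with siCtrl and 9.43, 9.47, 9.54 and 9.35 with siNupr1. The NF-kB arrays read 8.32, 8.65 and 8.45 in mock and 8.77, 8.79 and 8.74 in EBSS, with every EBSS array above every mock array. The HSF1 transcript was 0.29 ± 0.10 against mock (adjusted p = 0.0222), a call that failed without either siCtrl array (0.22, adjusted p = 0.168) and without either siRelB array (0.29, adjusted p = 0.0793 and 0.0788). At 9 h against 0 h it was 0.17 ± 0.12 and did not pass (adjusted p = 0.387). HSF1 is controlled largely after translation, and its activity was not measured.

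Lower at all 3 times were 14 members, namely BAG2, BAG3, CHORDC1, DNAJA1, DNAJA4, HSP90AA1, HSPA14, HSPA1A/HSPA1B, HSPA4L, HSPA8, HSPD1, HSPE1, HSPH1 and PTGES3. All of these but HSPE1 were lower against mock as well. The 3 time comparisons share the same 0 h arrays, so their calls are not independent. With each array left out in turn, HSPA1A/HSPA1B, HSPA8 and DNAJA1 alone stayed lower at all 3 times. The HSPA8 call was lost at 3 h under quantile normalization, and at 3 h and 6 h with no intensity trend. Of all tested genes 9.08%, 15.8% and 15.1% were lower at 3, 6 and 9 h. The shares lower at all 3, lower at all 3 and against mock, or called at no time were not counted. Another 14 members passed at no time: CDC37, DNAJA2, DNAJA3, DNAJB1, DNAJB2, DNAJB5, DNAJC2, DNAJC7, FKBP4, HSF1, HSP90AB1, the ST13 cluster, STIP1 and STUB1. From 3 h to 9 h, 4 members were higher at the later time (HSPA13, DNAJA2, HSPA9 and DNAJB6) and 4 lower (HSPB1, BAG3, DNAJA1 and DNAJA4), against 4.68% of all tested genes higher and 2.66% lower. HSPA13 differed by 0.81 ± 0.14, HSPA9 by 0.49 ± 0.08 and HSPB1 by -0.62 ± 0.08 over this interval, and the calls of HSPA9 and HSPB1 were those that held with each array left out in turn. HSPA1A/HSPA1B moved by 0.05 ± 0.11 between these times and did not pass.

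**Figure D3:**
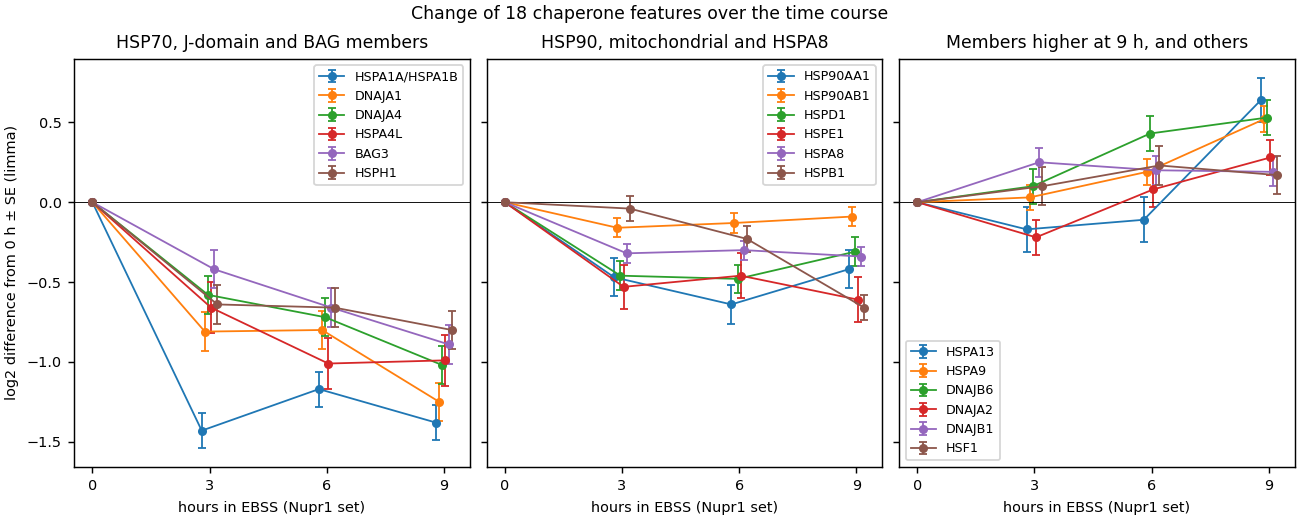
Log2 difference from 0 h with its standard error at 3, 6 and 9 h in EBSS (2 pairs of arrays a time) for 18 chaperone clusters in 3 panels; points are shifted slightly sideways to separate bars. HSPA1A/HSPA1B is near its lowest value at 3 h, BAG3, DNAJA1 and DNAJA4 fall again by 9 h, and HSPA13, HSPA9 and DNAJB6 end above 0.

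Members were also set by the letters of their promoters. Against mock, 6 of the 7 with a run of 3 units were lower (median -0.51), 8 of 9 tested with a core but no such run (median -0.52), and 8 of 14 with no core in any listed window (median -0.47). At 9 h against 0 h the counts were 5 of 7, 6 of 9 and 4 of 14, with medians of -0.34, -0.59 and -0.09. Of all tested genes 29.3% were lower against mock and 15.1% at 9 h against 0 h, with medians of 0.05 and -0.04. The groups are small. HSPE1, in the group with no core, has its window at 197500129 to 197500428 on chromosome 2. The HSPD1 window that holds a run lies beside it, at 197499791 to 197500090. DNAJB1 and HSP90AB1 were the members among the 8 shown with no call at any time of the time course. Both were called lower against mock, DNAJB1 not in every fit with 1 array left out. All 8 stretches shown hold cores, and where a gene had several starts the printed one is from a start with cores. No test was made of these groups.

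The 2 starvation comparisons have different baselines and lie in different sets, so baseline and set cannot be told apart in any contrast between them. That contrast, EBSS against mock minus 9 h against 0 h, was lower for 14 members and higher for 3, against 16.4% and 8.1% of all tested genes. CHORDC1 (-1.61 ± 0.21), HSPA13 (-1.31 ± 0.19), DNAJC2 (-1.25 ± 0.20), DNAJC21 (-1.11 ± 0.16), HSPA9 (-0.84 ± 0.10), HSPH1 (-0.78 ± 0.16), HSPA4 (-0.65 ± 0.13) and, on the other side, HSPB1 (0.55 ± 0.11) passed with each array left out in turn. The number of members called fell from 17 to 10 without either siRelA array and to 11 without the siNupr1 array at 9 h. HSPA1A/HSPA1B (0.19 ± 0.15, adjusted p = 0.34), HSPA8 (0.06 ± 0.07) and DNAJA1 (0.10 ± 0.15) did not pass, with values close to 0 beside their own differences. With errors of this size, values that did not pass do not show that the 2 comparisons were alike.

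Genomic span moved with several of the comparisons, most with EBSS against mock. Over 11020 tested genes with a span in the gene table, Spearman's rho of the difference with the span was -0.42 in EBSS against mock and -0.02 at 9 h against 0 h, and over the 35 members -0.38 and 0.14 (for the contrast of both, -0.39 and -0.65). It was -0.20 over all genes and -0.03 over the members at 3 h, -0.13 and -0.03 at 6 h, and 0.18 and 0.26 for 9 h against 3 h. For the siRNAs it was -0.19 and -0.33 with siNupr1, 0.05 and -0.24 with siRelA, -0.02 and -0.53 with siRelB, and -0.06 and -0.17 for siRelB against siRelA. Genes share the arrays, so these are descriptions. With the trend of each array on span removed, 26 members were lower and 2 higher against mock, and 25 of the 26 calls remained, all but that of DNAJB1. The calls gained were DNAJB6, higher at 0.36 (adjusted p = 0.00124), HSPB1, lower at -0.32 (adjusted p = 0.00045), and HSPE1, lower at -0.30 (adjusted p = 0.041). At 9 h against 0 h 15 of the 19 calls remained. Those of CHORDC1, DNAJB4, HSPA14 and HSPD1 were lost (adjusted p = 0.0639, 0.0547, 0.0876 and 0.0569). DNAJA2 was gained there, higher at 0.35 (adjusted p = 0.0236). In the contrast of both starvation comparisons 14 of 17 calls remained, with HSPB1 at 0.34 (adjusted p = 0.019). DNAJB6 (-0.21, adjusted p = 0.24), HSP90AA1 (-0.28, adjusted p = 0.191) and DNAJB1 (-0.23, adjusted p = 0.158) no longer passed. HSP90AB1 was gained (-0.34, adjusted p = 0.00484). Against mock HSPA1A/HSPA1B, which spans 2.4 kb, was -1.37 ± 0.09 after removal and CHORDC1, at 22.6 kb, -2.08 ± 0.14. The span is 1 length for each gene, 45.6 kb for DNAJB1 and 59 kb for HSP90AA1. Both genes have several listed starts, and spans of single transcripts were not used. What the relation with span stems from was not tested.

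Fewer members were called in the siRNA comparisons than in EBSS against mock. Against siCtrl over the 4 pairs of the Nupr1 set, siNupr1 gave 7 members higher and 4 lower, against 9.88% and 8.58% of all tested genes. HSPB1 was higher in 4 of 4 pairs by 0.61 ± 0.06 (adjusted p = 2.06e-06), at 11.36, 11.27, 11.05 and 10.75 where siCtrl read 10.71, 10.71, 10.55 and 10.00. BAG3 was higher in 4 of 4 pairs by 0.40 ± 0.09 (adjusted p = 0.00336). Both genes were higher at 0 h and at every time in EBSS, and these 2 calls held with each array left out in turn. FKBP4 (0.33 ± 0.08), CDC37 (0.32 ± 0.07), STUB1 (0.28 ± 0.09), the ST13 cluster (0.23 ± 0.07) and PTGES3 (0.22 ± 0.07) were higher too. That makes 3 of 7 members of the HSP90 group and, with BAG3, 3 of 4 cofactors of HSP70. Of the 14 fits with 1 array left out, STUB1 failed in 6, the ST13 cluster in 8 and PTGES3 in 6. FKBP4 and CDC37 failed in 2 each. With no intensity trend the calls of STUB1, the ST13 cluster and PTGES3 were lost. At 9 h STUB1 was not higher with siNupr1.

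Lower with siNupr1 were HSPA13 (-0.32 ± 0.10), HSPH1 (-0.29 ± 0.09), DNAJB6 (-0.23 ± 0.07) and HSPD1 (-0.22 ± 0.06). For HSPH1 the single pairs were -0.54, -0.36, -0.19 and -0.05 at 0, 3, 6 and 9 h, and for HSPA13 -0.68, -0.41, -0.23 and 0.03, so the arms met at 9 h (a dependence on time was not tested, and that array is the one with another siRNA name in its title). HSPA1A/HSPA1B (0.08 ± 0.08) and HSPA8 (-0.00 ± 0.04) did not pass. Without the siCtrl or the siNupr1 array at 3 h the 11 calls became 3, at 0 h 4 and at 6 h 5, and without the siNupr1 array at 9 h they were 14.

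RelA and RelB are NF-kB subunits, and the study asked whether they act on different genes. Both knockdowns were compared with the same 2 siCtrl arrays, so their values are not independent. With siRelA 9 members were lower and 4 higher, against 11.4% and 10.1% of all tested genes. HSPA4L was lower with a difference of -1.57 ± 0.16 (adjusted p = 1.96e-06), at 6.45 in mock and 4.57 in EBSS where siCtrl read 8.01 and 6.14. HSPA13 was lower with a difference of -0.97 ± 0.14 (adjusted p = 8.69e-05). These 2 calls held with each array left out. BAG2 (-0.68 ± 0.14), HSPA14 (-0.63 ± 0.13), DNAJB4 (-0.63 ± 0.18), CHORDC1 (-0.62 ± 0.17), HSP90AA1 (-0.56 ± 0.12), DNAJC2 (-0.47 ± 0.16) and HSPH1 (-0.35 ± 0.12) were lower, and DNAJA2 (0.53 ± 0.11), the ST13 cluster (0.50 ± 0.10), FKBP4 (0.32 ± 0.11) and HSPB1 (0.30 ± 0.08) higher. The 13 calls became 7 or 8 without any 1 of the siCtrl or siRelA arrays of this set.

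With siRelB 10 members were lower and 1 higher, against 8.55% and 7.57% of all tested genes. CHORDC1 was lower with a difference of -1.36 ± 0.17 (adjusted p = 1.9e-05), at 7.56 in mock and 5.34 in EBSS where siCtrl read 8.82 and 6.79. HSPA13 (-1.02 ± 0.14), HSPA4L (-0.85 ± 0.16) and DNAJB6 (-0.80 ± 0.11) were lower, and with CHORDC1 they held with each array left out. DNAJC2 (-0.83 ± 0.16), HSPA14 (-0.64 ± 0.13), HSPH1 (-0.45 ± 0.12), HSP90AA1 (-0.35 ± 0.12), HSPA4 (-0.33 ± 0.10) and DNAJB1 (-0.32 ± 0.09) were lower and DNAJA4 (0.37 ± 0.12) higher. Of these, 5 to 7 of the 11 calls were left without any 1 of the siCtrl or siRelB arrays.

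The direct contrast of siRelB with siRelA gave 3 members lower and 2 higher, against 4.61% and 5.45% of all tested genes. DNAJB6 was lower with siRelB with a difference of -1.0 ± 0.11 (adjusted p = 4.42e-06), at 9.42 in mock and 9.52 in EBSS against 10.51 and 10.43 with siRelA. Its siCtrl levels, 10.19 and 10.36, lay between, and this call held with each array left out. CHORDC1 (-0.74 ± 0.17) and HSPA4 (-0.42 ± 0.10) were lower, and HSPA4L (0.72 ± 0.16) and BAG2 (0.54 ± 0.14) higher. CHORDC1 and HSPA4L lost the call without any 1 of the 4 arrays compared, HSPA4 without 3 of these and BAG2 without 2. HSPA13, lower with both siRNAs, differed by -0.05 ± 0.14 between them (adjusted p = 0.895). HSPA1A/HSPA1B passed in no siRNA contrast.

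**Figure D4:**
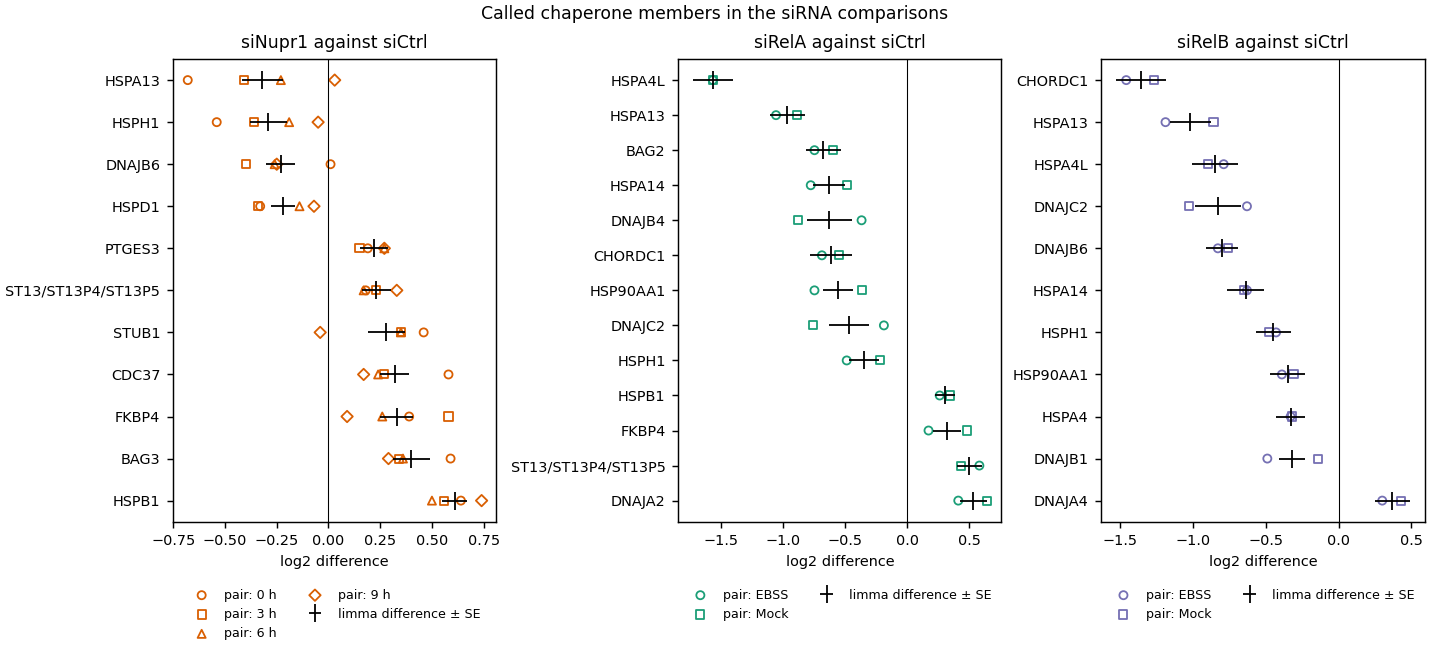
Log2 differences from siCtrl of the chaperone clusters that passed the threshold with siNupr1 (11), siRelA (13) and siRelB (11). Black bars give the limma difference and its standard error, and open symbols each single pair of arrays (4 times in the Nupr1 set, EBSS and mock in the NF-kB set); the siNupr1 pairs of HSPA13 and HSPH1 spread from under -0.5 to about 0, while the 2 siRelA pairs of HSPA4L coincide.

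Chaperones outside the list were counted the same way, to be read against the shares of all tested genes, 29.3% lower and 22.6% higher against mock and 15.1% lower and 9.19% higher at 9 h. Of 14 endoplasmic reticulum chaperones tested, 9 were lower and 1 higher against mock, and 7 lower and 3 higher at 9 h. DNAJC3 was -1.47 ± 0.10 and HSP90B1 -1.0 ± 0.09 against mock, while HERPUD1, which acts in the removal of proteins from this organelle, was 1.24 ± 0.13 and SDF2L1 -0.65 ± 0.14 at 9 h. Of 14 subunits of the TRiC chaperonin and prefoldin, which fold actin and tubulin, 9 were lower and 1 higher against mock (VBP1 -0.84 ± 0.12) and 3 lower at 9 h (PFDN6 -0.61 ± 0.12). Other cofactors of HSP70 and HSP90 were lower in 8 of 16 and higher in 2 against mock (PPID -1.07 ± 0.10, SUGT1 -0.94 ± 0.11), and lower in 5 at 9 h (NUDC -0.64 ± 0.11). Other J-domain proteins were lower in 12 of 24 and higher in 4 against mock (DNAJC13 -1.77 ± 0.12) and lower in 6 at 9 h (DNAJC24 -0.86 ± 0.17).

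Other mitochondrial chaperones and proteases were lower in 5 of 13 and higher in 2 against mock (YME1L1 -0.81 ± 0.10), and lower in 2 and higher in 2 at 9 h (LONP1 0.53 ± 0.13). Of 7 tested heat-inducible genes that are no chaperones of the list, 1 was lower (MRPL18, -0.39 ± 0.09) and 1 higher against mock, and 3 were lower and 1 higher at 9 h. The medians of these lists against mock, -0.27 for both endoplasmic reticulum chaperones and TRiC with prefoldin, -0.16, -0.31, -0.08 and 0.08, compare with -0.50 for the members and 0.05 for all tested genes. The lists share no genes with the members, and DNAJB9, DNAJB11 and DNAJC3 stand in 2 of them.

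**Figure D5:**
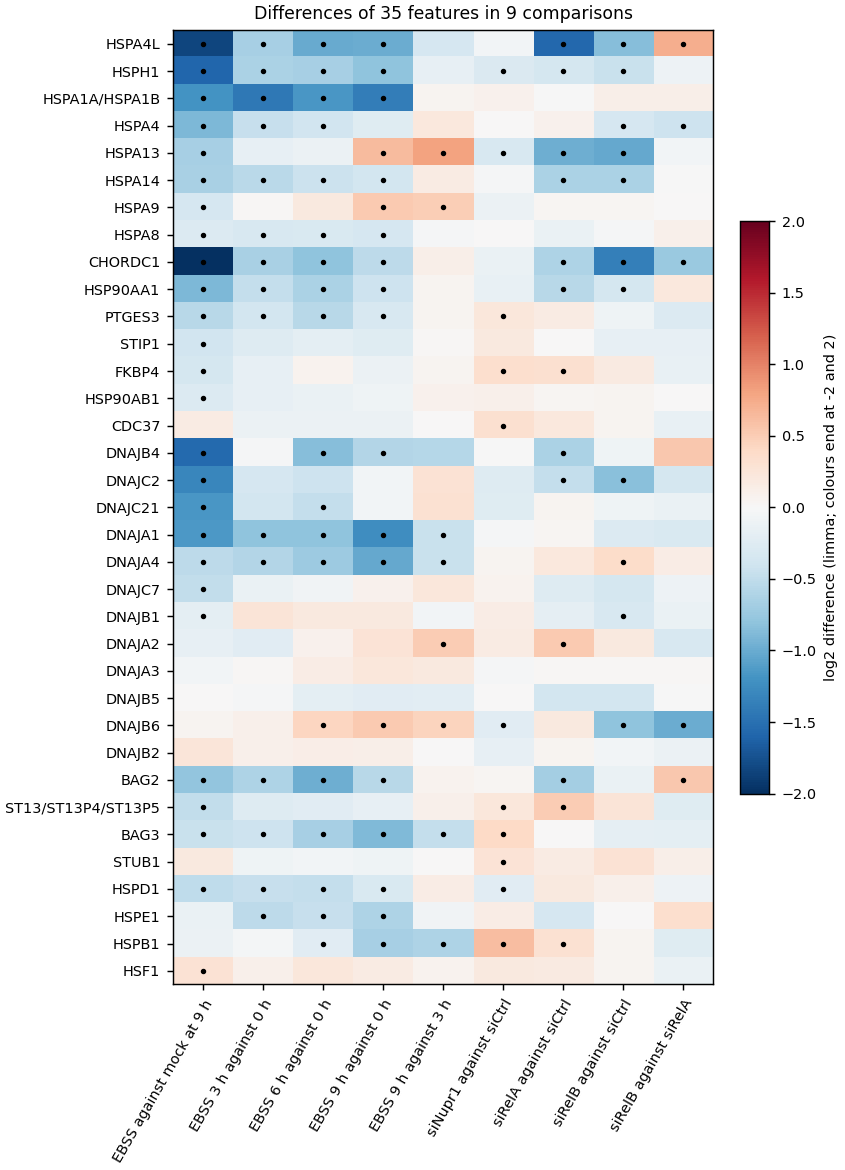
Log2 differences of the 35 tested chaperone clusters (rows, by role) in 9 comparisons (columns), from blue (lower) to red (higher), with colours ending at -2 and 2; a black dot marks an adjusted p under 0.05. The first 4 columns, which are starvation comparisons, are mostly blue, with 25, 15, 18 and 16 dots on lower clusters, and the siRNA columns on the right hold fewer dots of both colours.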

How the data were processed

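RNA of 14 samples was hybridised to Affymetrix arrays, 1 array a combination of siRNA, medium and time. The authors deposited log2 values of 28869 transcript clusters, made with RMA per the submitters' processing notes. Neither its version nor a genome build was found in the labels. Precision is limited by the number of arrays. Gene symbols came from the platform annotation table. The brightest cluster stood for a gene, and the lowest 40% of genes by mean level (log2 under 5.80) were left out, leaving 11027. The joint clusters of HSPA1A with HSPA1B and of ST13 with its pseudogenes were added after the values had been seen.

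A limma 3.58.1 model (R 4.3.3) with set, siRNA, and medium or time as additive terms was fitted to all 14 arrays, with an intensity trend and Benjamini-Hochberg adjustment over all tested genes (threshold 0.05). Its 5 residual degrees of freedom hold array noise and any interaction. It was tested on simulated data. The members and lists were chosen with earlier results of these data known. A member was described in full if it was among the 6 largest called differences in EBSS against mock or in 9 h against 0 h, was called in a siRNA comparison or in the contrast of both starvation comparisons, or was one of the leading members (HSPA1A, HSPA8, HSP90AA1, HSP90AB1, HSPD1, HSPE1, HSPB1, DNAJB1, HSF1). The others are given by their range and differences. Of each other list, up to 3 genes with the largest called differences were named. Alternatives were quantile normalization, other filters, no intensity trend, array weights, the mean of all clusters, each set alone, removal of a trend on genomic span, and leaving out each array. Promoters came from RefSeq (GRCh38.p14). Proteins were not used here.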

Additional observations from a re-analysis of the deposited data

Results flagged for a closer look

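For 17 chaperone members the change in EBSS against mock differed from the change at 9 h against 0 h by limma's test of the difference (Benjamini-Hochberg adjusted p under 0.05). The contrast is the first change minus the second, it has different baselines and different sets on its sides, and these cannot be told apart. It was -1.61 for CHORDC1, -1.31 for HSPA13, -1.25 for DNAJC2 and -1.11 for DNAJC21. It was -0.97 for DNAJB4, -0.85 for HSPA4L, -0.84 for HSPA9, -0.78 for HSPH1 and -0.65 for HSPA4. Smaller values were found for DNAJC7 (-0.58), HSP90AA1 (-0.48), DNAJB6 (-0.47), DNAJA2 (-0.45) and DNAJB1 (-0.38). Of these, HSP90AA1 failed in 4 of the 14 fits with 1 array left out (-0.25, adjusted p = 0.272, without the siNupr1 array at 0 h), DNAJA2 in 7 (highest adjusted p 0.128), DNAJB1 in 6 (0.15), and DNAJC7 and DNAJB6 in 3 each (0.133 and 0.131). Under 7 other settings HSP90AA1 and DNAJB1 each lost the call in 5, DNAJA2 in 3, DNAJB6 in 2 and DNAJC7 in 0. The contrast was positive for BAG3 (0.45), DNAJA4 (0.50) and HSPB1 (0.55), whose fall was the larger one at 9 h against 0 h. BAG3 failed in 10 of the 14 fits and DNAJA4 in 6, while HSPB1 passed in all 14 and was 0.34 with the trend on genomic span removed. Among the larger values HSPA4L failed in 2 fits (-0.52 at its smallest) and DNAJB4 in 1. HSPA13 and HSPA9 are the members with called changes of opposite sign, higher than at 0 h and lower than in mock. No test for an outlier within a group was made, since each group has 1 array, and what single arrays contribute is given by leaving each out.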

How the results depend on the processing

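Of 144 called member differences, array weights lost 14, quantile normalization 16, no filter on dim genes 17, leaving out the lowest 20% only 8, no intensity trend 21, and the mean of all clusters 0. With each set fitted alone 6 of 127 were lost, and with the genomic span trend removed 10 were lost and 1 reversed, DNAJB1 in EBSS against mock (0.02). Over the fits that left out 1 array, 1736 calls were kept, 280 lost and 0 reversed. Counts of called members that moved by over 1.5 times were 11 for the contrast of both starvation comparisons and 5 for 9 h against 3 h with array weights, 6 for siNupr1 with no intensity trend and 7 for siRelB with no filter; the cause was not tested. With each array left out the counts ran from 24 to 27 in EBSS against mock, from 4 to 17 at 3 h, from 11 to 19 at 6 h, from 11 to 20 at 9 h and from 2 to 9 for 9 h against 3 h. They ran from 3 to 14 for siNupr1, from 7 to 14 for siRelA, from 5 to 13 for siRelB, from 1 to 6 for siRelB against siRelA and from 10 to 17 for the contrast of both starvation comparisons. Without the siNupr1 array of doubtful title the count at 9 h was 17. Under quantile normalization the share of all called genes that were higher moved from 63.8% to 51.8% for 9 h against 3 h. No paired analysis was possible because the labels carry no replicate numbers to use as a block; the additive model itself compares media and times within each siRNA. Signals near or below the filter level (HSPA4L, DNAJB4, DNAJC2 and CHORDC1 in EBSS) limit how large a fall could be read.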
